A study of Mus musculus with 20 samples.

Results

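The complement components and receptors described here are 9 genes: C1qa, C1qb and C1qc for the chains of C1q, C3, C4b, Cfb (factor B) and Cfp (properdin) for further components, and C3ar1 and C5ar1 for the receptors of the anaphylatoxins. They were chosen by name and not by their values, and 8 of them had a row among the 25392 genes of the library tables. C4b had no row in the tables used here and is not analysed here. Its near-identical copy C4a was measured and is given separately, since the treatment of reads shared by such copies is not given in the sources used here.

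Cells from eyes of C57BL/6 mice aged 8 weeks were stained for CD45 and CD11b, and those with CD45, a marker of haematopoietic cells that microglia also carry, were sorted into wells. There were 4 libraries for each of 5 groups: cornea, ciliary body, unlesioned retina (control), and retina at day 3 and day 7 of laser lesioning. Lesioned samples carry the label CNV, commonly short for choroidal neovascularization, and only they are described as lesioned. The labels name no mouse or experiment for a library, while the design speaks of ca. 6 mice and 3 independent experiments, so p-values may measure only the technical spread between libraries.

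Complement is a cascade of plasma and cell-derived proteins. C1q, built from A, B and C chains, starts the classical pathway when it binds immune complexes or dying cells, C4 and C3 are cleaved and deposited on the target, and factor B and properdin form and stabilise the C3 convertase of the alternative pathway. The fragments C3a and C5a act on myeloid cells through C3AR1 and C5AR1. In nervous tissue microglia are the main cells that transcribe the C1q genes, and C1q there is known for its part in the removal of synapses and debris.

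The deposited annotation named 829 of 3840 wells. It gave 120 microglia in unlesioned retina, 32 and 88 by prefix, 81 (30 and 51) at day 3 and 63 and 50 at day 7, then 82 and 26 dendritic cells at days 3 and 7, and 121 cornea and 111 ciliary body macrophages. Monocytes, lymphocytes and granulocytes, which the annotation joins (here the mixed class), held 46 wells at day 3, 41 at day 7, 73 in ciliary body and 5 in cornea. Libraries come in pairs named with the same prefix (P1 and P2 in retina, P2 and P5 in cornea, P3 and P4 in ciliary body), and each pair was summed per class, which gave 2 sums per group. A level is a gene's CPM in such a sum after TMM scaling across all sums (scaled CPM). Library totals ran from 371329 to 3325825 transcripts. All libraries number their 192 wells alike, so a shared well number marks no shared cell. All 8 microglia markers on the fixed list were present in every microglia sum, and all 9 dendritic cell markers in every dendritic cell sum. In the macrophages 4 to 6 of 7 macrophage markers were above 0, with Folr2 at 0 in every sum.

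The upstream sequences of C1qb, C1qc and Cfp are shown because C1qc was, of 2694 genes, the one whose level followed that of C1qb most closely (Pearson r = 0.99 over 21 sums of class, tissue, day and prefix, which share libraries), while Cfp did not follow it (r = -0.56). The promoter table used here, from RefSeq (GRCm38.p6), matched 6 of the 9 members, all but C1qa, C4b and Cfb. Capitals mark AGGAAG or CTTCCT, the 2 strands of a core bound by ETS-family factors, and TGCTGA or TCAGCA, a MAF half-site. C1qb is on the minus strand at chr4:136886201-136886450, C1qc on the minus strand at chr4:136893066-136893164 (the 99 bases upstream of an annotated exon) and Cfp on the minus strand at chrX:20931556-20931805.
C1qb: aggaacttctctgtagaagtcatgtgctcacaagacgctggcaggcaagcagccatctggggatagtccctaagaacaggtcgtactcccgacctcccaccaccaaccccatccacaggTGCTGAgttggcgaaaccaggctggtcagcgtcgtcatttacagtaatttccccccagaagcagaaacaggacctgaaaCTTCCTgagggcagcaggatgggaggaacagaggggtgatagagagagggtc
C1qc: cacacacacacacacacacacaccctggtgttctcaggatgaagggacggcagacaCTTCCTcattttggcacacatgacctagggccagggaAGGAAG
Cfp: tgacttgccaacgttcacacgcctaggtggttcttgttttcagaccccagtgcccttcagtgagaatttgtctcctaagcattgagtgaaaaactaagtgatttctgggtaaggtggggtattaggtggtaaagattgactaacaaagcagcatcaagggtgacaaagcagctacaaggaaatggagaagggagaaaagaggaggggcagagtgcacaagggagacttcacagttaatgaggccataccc
C1qb held 1 ETS core, which begins 52 bases before its start, and 1 MAF half-site, which begins 131 bases before it. C1qc held 2 ETS cores, which begin 194 and 157 bases before its start. Cfp held neither. No match in these 3 windows overlapped another. Of 27025 promoters of 250 bases, 29.2% held the ETS core and 15.8% the MAF half-site. These are matches of letters in these windows and nothing more.

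C1q transcripts were highest in microglia, lower in the macrophages of cornea and ciliary body, and lower again in the other classes taken whole. C1qb, the B chain, measured 4223 scaled CPM in P1 and 4058 in P2 of control microglia, 4682 and 4983 at day 3, and 6108 and 5935 at day 7. In macrophages it measured 2772 (P2) and 2680 (P5) in cornea and 2785 (P3) and 1827 (P4) in ciliary body. Every microglia sum lay above every macrophage sum, and the macrophages of the 2 tissues overlapped. C1qc, the C chain, was also highest in microglia, with 3551 and 3363 in control microglia, 3886 and 4582 at day 3, 4546 and 4390 at day 7, 1736 and 1814 in cornea macrophages and 1290 and 1258 in ciliary body macrophages. C1qa, the A chain, measured 1666 and 1828 in control microglia, 1610 and 1399 at day 3 and 1826 and 2233 at day 7. Its macrophage sums were 908 and 786 in ciliary body but 820 and 274 in cornea, so the 2 cornea sums stood far apart for this chain alone. In the mixed class C1qb ran from 364 to 1191 and in dendritic cells from 129 to 574. The mixed class was not uniform. Its eye clusters 5 (16 cells) and 17 (15 cells), as drawn by the authors, had summed C1q levels of 3243 and 2490 scaled CPM. Its other eye clusters had 383 to 607, and macrophage clusters 1 and 3 had 2360 and 1822. Clusters 5 and 17 also held macrophage markers at 532 and 436, against 33.8 to 282 in the other eye clusters of the class. Cluster 5 held keratocyte and fibroblast markers at 2899 beside NK cell markers at 1022, and cluster 17 monocyte markers at 1191. The authors drew classes from all genes of the same cells, so the order of classes is a description and was not tested.

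**Figure D1:**
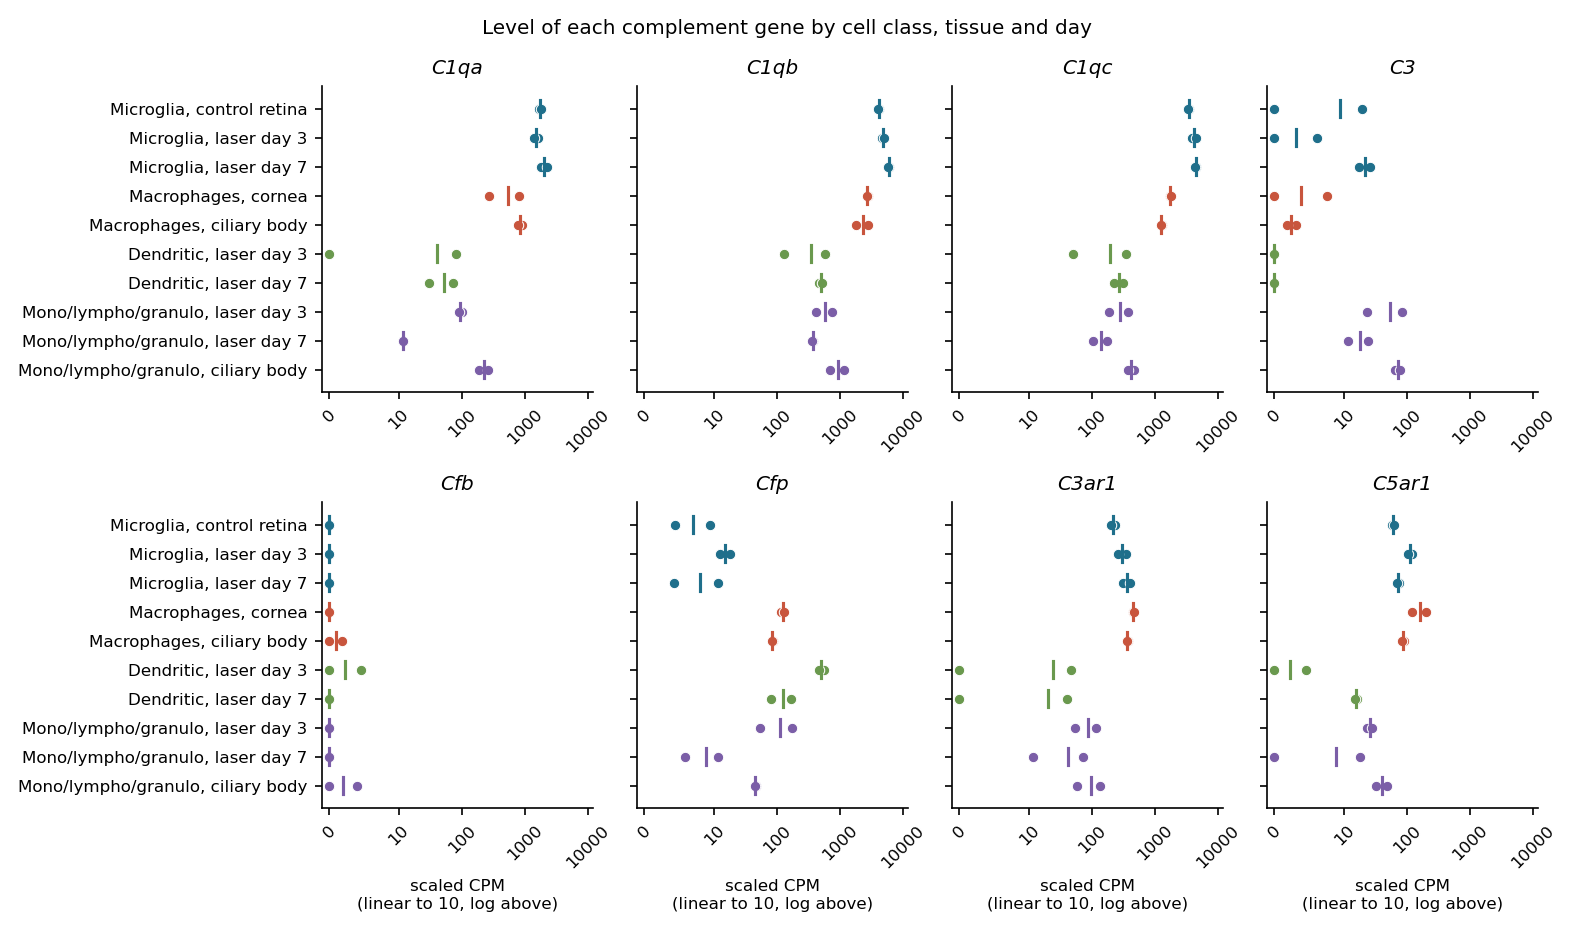
Level of each of the 8 measured members in every class, tissue and day. The horizontal axis gives scaled CPM on an axis that is linear below 10 and logarithmic above, each dot is the sum of 1 pair of libraries and each bar the mean. Microglia are highest for the 3 C1q chains, dendritic cells of day 3 for Cfp (461 and 556) and cornea macrophages for C3ar1 (444 and 465).

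Single wells gave the same order. C1qb was found in 120 of 120 control microglia, 81 of 81 at day 3 and every cell of day 7. With each well thinned to 1000 transcripts, the 3 chains together had a median of 15 transcripts per control microglial cell, 16 at day 3 and 19 at day 7, against 7 per macrophage in both tissues. No microglial cell fell below 2. Thinning left out 4 shallower control microglia and no other annotated cell.

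**Figure D2:**
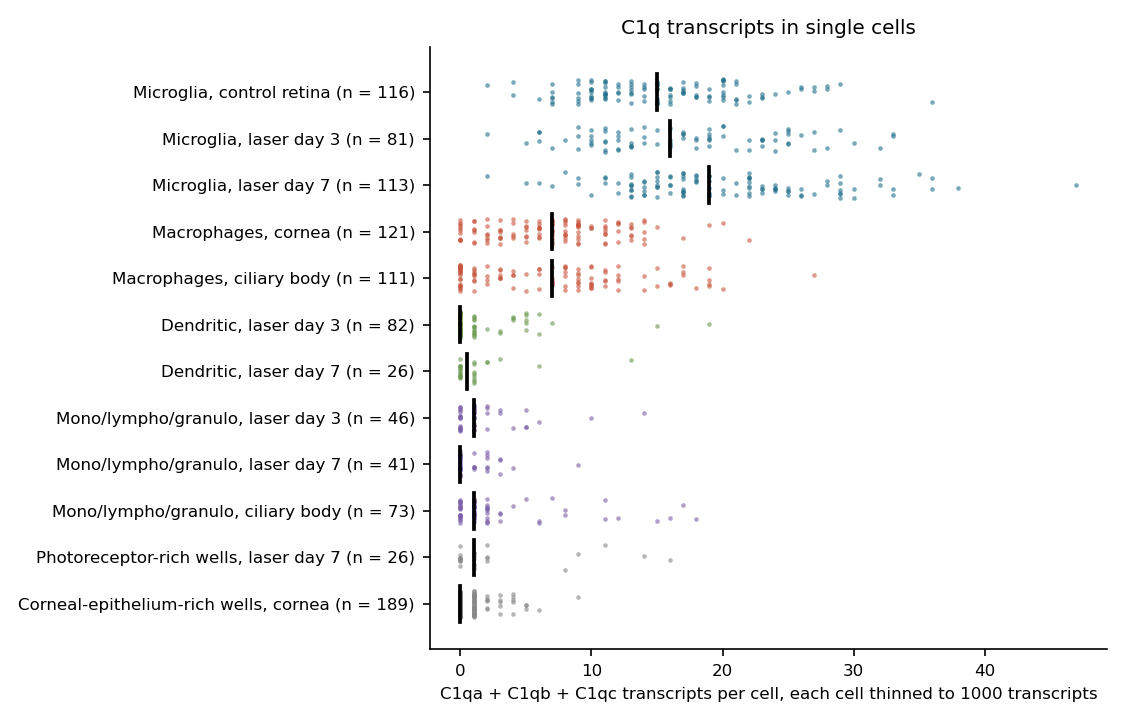
C1qa, C1qb and C1qc transcripts per well after thinning each well to 1000 transcripts, on the horizontal axis, with 1 row per class or kind of well, dots for wells and a bar for the median. The medians are 15, 16 and 19 in microglia, 7 in both kinds of macrophages and at most 1 in dendritic cells and the mixed class, beside 0 to 2 in wells rich in corneal epithelial or photoreceptor transcripts.

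The C1q reading of dendritic cells was at or below that of photoreceptor-rich wells of control retina and of day 7. These wells carry no annotation and came from the same CD45 sort. After thinning, C1qb was found in 28.0% of dendritic cells at day 3 (Wilson 95% interval 19.5 to 38.6%) and 38.5% at day 7, unthinned 79.3% and 80.8%, at median depths of 10294 and 7060 transcripts. It was found in 42.9% of photoreceptor-rich wells of control retina (unthinned 92.9%, median depth 19369) and 57.7% of those at day 7 (unthinned 84.6%, median depth 11656), where a well is called rich at 5% of transcripts from the marker list. The thinned shares of C1qa were 9.76% and 3.85% in dendritic cells and 21.4% and 15.4% in those wells, and those of C1qc 19.5% and 30.8% against 7 of 14 wells and 30.8%. The 7 photoreceptor-rich wells of day 3 were shallow, at a median depth of 1268 transcripts. Unthinned, they held C1qb in 6 wells, C1qc in 1 and C1qa in 0 (Wilson 95% interval up to 35.4%). For C1qa and C1qc the dendritic cells of day 3 were thus not below the wells of their own day. Whether the photoreceptor-rich wells hold C1q transcripts of their own was not tested. They therefore do not settle how much of the dendritic cell reading is background. For the mixed class the thinned share of C1qb was 54.3% at day 3, between those of the photoreceptor-rich wells of control retina and of day 7. At day 7 it was 29.3%, below both. In ciliary body the mixed class held C1qa in 15.1%, C1qb in 54.8% and C1qc in 37.0% of wells after thinning. Beside it stood 7 wells of that tissue rich in corneal epithelial transcripts, with C1qb in 85.7% and C1qa and C1qc in 0 of 7 (Wilson 95% interval up to 35.4%). In cornea, wells rich in corneal epithelial transcripts held C1qb in 24.3% of cases after thinning, below the 86.8% of cornea macrophages.

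The question put to the retina libraries was how its immune cells changed at 2 times after the laser. In microglia at day 3, none of the 5 members tested passed the threshold of 0.05 on the adjusted p, where 22.3% of all 3704 genes did. Cfp, C3 and Cfb had too few transcripts for the test. C1qb differed from control by 0.16 ± 0.20 (log2 ± SE, edgeR adjusted p = 0.596), C1qc by 0.23 ± 0.21 (0.448) and C1qa by -0.28 ± 0.22 (0.370). C5ar1, with 118.8 and 104.8 scaled CPM at day 3 and 56.8 and 62.0 in control, had the largest difference of the 5, 0.83 ± 0.40 with an edgeR adjusted p of 0.148. Its 2 day 3 sums both lay above both control sums. C3ar1 differed by 0.40 ± 0.28 (edgeR adjusted p = 0.316), from 237 and 204 to 345 and 259. None of the 5 had an unadjusted p under 0.05, and DESeq2 called none.

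At day 7 none of the 5 members passed in microglia either, where 0.999% of all genes did. C1qb lay highest at this time: its day 7 sums, 6108 and 5935, stood above all 4 other microglia sums, and it differed from control by 0.49 ± 0.21 (edgeR adjusted p = 0.274). C3ar1, with 311 and 399 against 237 and 204, differed by 0.66 ± 0.28 (edgeR adjusted p = 0.283). C1qc differed by 0.32, C1qa by 0.17 and C5ar1 by 0.21, with edgeR adjusted p from 0.535 to 0.891. C1qb and C3ar1 had unadjusted p under 0.05, and DESeq2 called none. Between day 7 and day 3 none of the 5 passed, against 9.07% of all genes, none had an unadjusted p under 0.05, and DESeq2 called none. The median difference of the 5 was 0.23 at day 3, 0.32 at day 7 and 0.26 between them, beside 0.02, -0.01 and 0.02 over all genes. The 2 comparisons with control share the control sums.

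The microglia result turned on the scaling. The predicted gene Gm10800 took 32.2% and 30.3% of the transcripts in the 2 control sums, 13.4% and 13.9% at day 3 and 23.3% and 25.9% at day 7. With plain totals in place of TMM the median of all genes went from 0.02 to 0.62 at day 3 and from -0.01 to 0.22 at day 7, and against totals C1qb (0.78), C1qc (0.85), C3ar1 (1.01) and C5ar1 (1.42) passed at day 3, and C1qb (0.75) at day 7. C1qa then differed by 0.34 at day 3, with the other sign. The microglia list had summed levels of 14648 and 16670 in control sums, 10017 and 12391 in those of day 3, and 13292 and 12587 in those of day 7. Monocyte markers summed to 28.4 and 39.8 in control sums, 559 and 752 in those of day 3 and 194 and 150 in those of day 7, with 3 to 5 of 6 above 0 and Vcan at 0 in every microglia sum. Their highest values in any microglia sum were uneven: 529 for Fn1, 117 for Plac8, 105 for Ccr2, 83.2 for Ly6c2 and 9.24 for Chil3. The authors' second call, by signature, named 98.3% of control microglia as microglia, 74.1% at day 3 and 87.6% at day 7. Their part in the result was not tested beyond the fits on signature-named cells, in which no member passed.

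**Figure D3:**
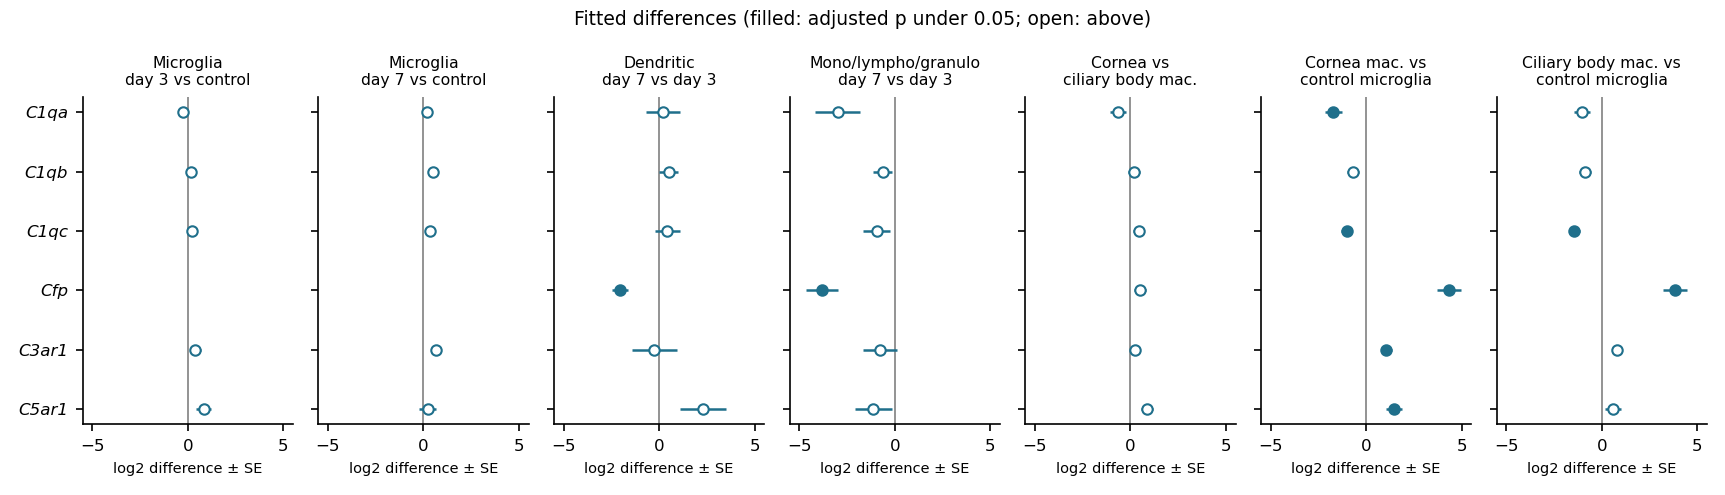
Difference of each tested member in 7 comparisons, as log2 ratio on the horizontal axis with bars for the standard error. Filled points passed an edgeR adjusted p of 0.05. In microglia after laser no point is filled, while Cfp is filled in both other retinal classes and in both comparisons of macrophages with microglia.

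The second question was how the compartments of the unlesioned eye differ. Cornea and ciliary body macrophages held less C1qc than control microglia. The difference was -1.02 ± 0.29 in cornea (edgeR adjusted p = 0.0148) and -1.45 ± 0.29 in ciliary body (0.00221). C1qa fell by 1.71 ± 0.43 in cornea macrophages (edgeR adjusted p = 0.00959), and differed by -1.04 ± 0.42 in ciliary body (0.0843). C1qb did not pass in either tissue, at -0.66 ± 0.31 (edgeR adjusted p = 0.115) in cornea and -0.86 ± 0.31 (0.053) in ciliary body. The ciliary body difference of C1qb passed with DESeq2 (adjusted p = 0.0139) and under 6 other alternatives (edgeR adjusted p from 0.00241 to 0.0497). It was not steady, and ran from -1.07 to -0.50 when 1 sum was left out. With macrophage clusters 1 and 3 left out it was -0.27 (edgeR adjusted p = 0.577), and that of C1qa was -0.27 (0.686). Counting all members, 5 of the 6 tested passed in cornea, where 34.7% of 4497 genes did, and 2 of 6 in ciliary body, where 29.7% did. The median of all genes was 0.14 in the cornea comparison. Both comparisons share the control microglia.

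The cornea values rested on single sums. Without cornea P5 only C3ar1 and Cfp passed against microglia, with C1qa at -1.0 (edgeR adjusted p = 0.0821), and without control P2 only Cfp did. C1qc also lost its call without cornea P2 (edgeR adjusted p = 0.131) or control P1 (0.104), without the filter on low counts (0.269) and with plain totals (0.131). Immediate early genes, known to rise during tissue dissociation, summed to 3965 to 9380 scaled CPM in the macrophage sums and 1013 to 1513 in control microglia. Corneal epithelial transcripts summed to 13999 and 19472 in cornea macrophages, 0 and 1318 in ciliary body macrophages and 0 and 978 in control microglia. Their part in these differences was not tested, and the calls of C1qa, C1qc, C5ar1 and Cfp in cornea were kept in wells with under 1% of such transcripts, while C3ar1 had an edgeR adjusted p of 0.0536 there.

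Between cornea and ciliary body macrophages none of the 6 members tested passed, against 3.51% of all genes. C5ar1 came closest, with 122 and 202 in cornea and 88.7 and 83.0 in ciliary body, a difference of 0.86 ± 0.33 (edgeR adjusted p = 0.191); it alone had an unadjusted p under 0.05, and DESeq2 called none. C1qa differed by -0.67 ± 0.42 (edgeR adjusted p = 0.492). Without cornea P2 it differed by -1.70 (edgeR adjusted p = 0.00791) and without cornea P5 by -0.08, so the value was decided by which cornea sum was used.

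The A chain set the cornea sums apart. C1qa made up 15.4% of C1q transcripts in cornea P2 macrophages (Wilson 95% interval 13.6 to 17.4%, 1403 transcripts) and 5.74% in cornea P5 (4.59 to 7.16%, 1272 transcripts). Its share was 18.2% and 20.3% in the ciliary body sums and 12.8 to 19.8% in the 6 microglia sums. Both cornea P5 libraries were low, at 6.05% and 5.47%, and both cornea P2 libraries higher, at 19.8% and 14.4%. C1qb and C1qc did not part these sums, with 2680 and 1814 in P5 and 2772 and 1736 in P2. Intervals cover counting error only. What a prefix stands for is not given in the labels, so animal, sort and library preparation cannot be told apart here. The makeup of the sums differed too. Of the cornea cells in the authors' macrophage clusters 6, 9 and 16, P5 gave 10 of 12, 8 of 10 and 7 of 7. C1qa was 5.60%, 7.20% and 9.09% of C1q in these clusters. It was 14.2% in cluster 2 (P5 13 of 34) and 9.89% in cluster 3 (18 of 33). The part of makeup was not tested. C1qa was found in 35 of 56 P2 and 40 of 65 P5 cells.

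**Figure D4:**
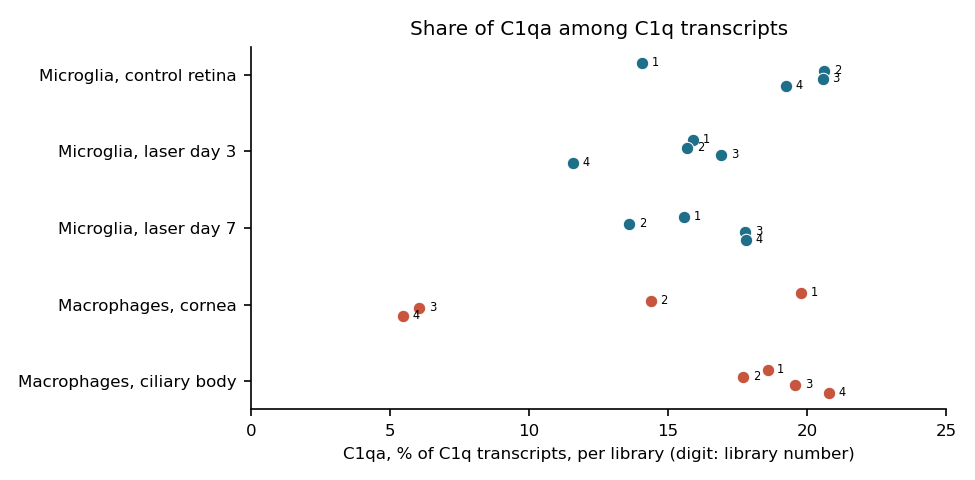
Share of C1qa among the transcripts of the 3 C1q chains in each library, in percent, by class and group. The 2 cornea P5 libraries lie at 6.05% and 5.47%, and the ciliary body libraries between 17.7% and 20.8%.

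Cfp, the gene of properdin, the stabiliser of the alternative pathway convertase, had another distribution. It was highest in retinal dendritic cells at day 3, with 556 (P1) and 461 (P2) scaled CPM, and measured 80.8 and 167 there at day 7. Macrophages of cornea measured 118 and 131, those of ciliary body 85.6 and 84.9. Microglia ranged from 4.32 to 17.8 over all 6 sums, on 1 to 4 transcripts each. The mixed class measured 172 and 54.7 at day 3, 5.91 and 11.7 at day 7 and 46.1 and 44.8 in ciliary body. Its 5 cells in cornea measured 180 on 6 transcripts. Cfp was found in 45.1% of dendritic cells at day 3 after thinning (34.8 to 55.9%) and in 0 of 26 photoreceptor-rich wells of day 7 (Wilson 95% interval up to 12.9%). Unthinned, the shares were 74.4% and 19.2%. At day 3 there were 7 photoreceptor-rich wells, at a median depth of 1268 transcripts, with Cfp in 0 of 7 (Wilson 95% interval up to 35.4%). These wells do not settle how much of the day 3 reading is background.

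Cfp fell in both laser classes from day 3 to day 7. In dendritic cells it fell by 2.07 ± 0.42 (edgeR adjusted p = 0.0396), from 423 to 21 transcripts, a ratio of 4.38 after scaling (95% counting interval 2.83 to 7.15). It was the only one of 6 tested members to pass, where 0.161% of 3732 genes did, and 1 member had an unadjusted p under 0.05. The 4 day 3 libraries measured 394 to 620 and the 3 day 7 libraries with at least 5 cells 69.3 to 216. Libraries of the same prefix were summed for the test and are not separate replicates here. After thinning, Cfp was found in 45.1% of day 3 and 15.4% of day 7 dendritic cells. The call was lost with DESeq2 (adjusted p = 0.625), in wells with under 1% photoreceptor and corneal transcripts (edgeR adjusted p = 0.0565), and without day 3 P1 (0.228), day 7 P1 (0.526) or day 7 P2 (0.101), with the difference between -1.56 and -2.63 in all of these. Dendritic cell markers summed to 1608 and 1247 in the day 3 sums and 2262 and 1305 in the day 7 sums. The signature call named 48.8% of the class as dendritic cells at day 3 and 69.2% at day 7, and within those cells Cfp was 520 at day 3 and 134 at day 7.

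In dendritic cells C1qa, C1qb, C1qc, C3ar1 and C5ar1 did not pass. C1qb differed by 0.51, with day 3 sums of 129 and 574 and day 7 sums of 469 and 531. The P1 sum of day 3 stood apart, and when the P2 sum of day 3 was left out C1qb differed by 2.00 and C1qc by 2.48. C1qa held 0 transcripts in that P1 sum, so its difference in this fit has no bounded value. At day 7 its P1 sum held 9 transcripts, all in 1 cell. The C1q reading also differed by signature call within this class. At day 3 C1qb measured 306 in the 40 cells called dendritic and 524 in the 36 unassigned cells. At day 7 it measured 268 in the 18 cells called dendritic and 1230 in the 7 unassigned cells. C1qa and C1qc were higher in the unassigned cells at both days as well, and these values were not tested.

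In the mixed class Cfp fell by 3.79 ± 0.84 (edgeR adjusted p = 0.0170), from 30 transcripts to 2, a ratio of 13.9 with a counting interval of 3.53 to 120. It was 1 of 6 members to pass, where 1.42% of all genes did. The call was lost with DESeq2 (adjusted p = 0.118) and without day 3 P1 (edgeR adjusted p = 0.266), day 7 P1 (0.205) or day 7 P2 (0.0572). The makeup of the class moved with it: the signature call named 15 of 46 cells lymphocytes at day 3 and 32 of 41 at day 7, and 11 and 2 cells monocytes. Its T cell markers summed to 0 and 130 at day 3 and 437 and 892 at day 7. Their part in the result was not tested. Within lymphocytes by signature Cfp had 6 transcripts in 15 cells at day 3 and 1 in 32 at day 7, counts too small to compare further. C1qa, on 26 and 3 transcripts, differed by -2.99 ± 1.19 (edgeR adjusted p = 0.290) and passed only without the filter on low counts (0.00377).

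Whether Cfp fell more in one class than in another was tested as an interaction. None of the 6 members passed for dendritic cells against microglia (0.0536% of all genes passed), the mixed class against microglia (1.66%) or dendritic cells against the mixed class (0.241%). For Cfp the differences of changes were -1.21 ± 1.21, -2.93 and 1.73, with edgeR adjusted p of 0.785, 0.356 and 0.701. In each of these interactions 1 member had an unadjusted p under 0.05.

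Against control microglia Cfp was higher in both kinds of macrophages. It rose by 4.32 ± 0.62 in cornea (edgeR adjusted p = 2.0e-04; 66 transcripts against 2, ratio 20.6, counting interval 5.49 to 174) and by 3.83 ± 0.64 in ciliary body (6.4e-04; 73 against 2, ratio 14.1, 3.77 to 118.8). After thinning it was found in 9.92% of cornea macrophages, 9.91% of ciliary body macrophages and 0 of 116 control microglia, unthinned in 23.1%, 29.7% and 1.67%. Wells rich in corneal epithelial transcripts held it in 1.06% after thinning.

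C3, the central component, was scarce throughout, with 70.0 transcripts in all annotated wells. The highest sums were 82.1 scaled CPM in the mixed class of day 3 (P2, with 23.4 in P1) and 77.3 and 64.6 in the mixed class of ciliary body. Microglia held 2 C3 transcripts in control, 2 at day 3 and 9 at day 7, and dendritic cells 0 in 82 and 26 cells. A pair of the authors' clusters carried most of it: cluster 11 of the eye table (20 cells, monocyte markers 4399 scaled CPM) held 30 C3 transcripts in 12 cells, and cluster 8 of the retina table (9 cells, monocyte markers 4360) held 13 in 5 cells. The other clusters of the mixed class held 0 to 4 each. Cfb, which supplies the protease of the alternative convertase, had 3 transcripts in all annotated wells, and none in microglia, so no difference was detectable at this depth.

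The anaphylatoxin receptors were highest in sums of microglia and macrophages. C3ar1 measured 444 and 465 scaled CPM in cornea macrophages, 373 and 362 in ciliary body macrophages and 237 and 204 in control microglia, against 0 to 47.3 in dendritic cells and 11.7 to 134 in the mixed class. C5ar1 measured 122 and 202, 88.7 and 83.0, and 56.8 and 62.0 in the same 3 classes, 0 to 16.2 in dendritic cells and 0 to 48.8 in the mixed class. In the 11 cells that the signature call named monocytes at day 3, C3ar1 measured 159 on 11 transcripts and C5ar1 58.0 on 4. Microglia after laser overlapped ciliary body macrophages for C3ar1 (259 to 399), and at day 3 lay above them for C5ar1. Against control microglia both receptors were higher in cornea macrophages, C3ar1 by 1.05 ± 0.29 (edgeR adjusted p = 0.0125) and C5ar1 by 1.46 ± 0.40 (0.0121). The cornea call of C5ar1 was lost with DESeq2 (adjusted p = 0.0668), and those of both receptors without control P2. In ciliary body macrophages C3ar1 differed by 0.79 ± 0.29 (edgeR adjusted p = 0.0505) and C5ar1 by 0.59 ± 0.41 (0.298). The ciliary body difference of C3ar1 passed under 5 alternatives (edgeR adjusted p from 0.00156 to 0.0470) but not with DESeq2. After thinning C3ar1 was found in 38.8% of cornea and 32.4% of ciliary body macrophages, 27.6% of control microglia and 5.29% of corneal-epithelium-rich wells.

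The levels of the members varied among the authors' 9 macrophage clusters. Clusters 1 (26 cells, 25 from ciliary body) and 3 (56 cells, 33 from cornea) held dendritic cell markers at 1316 and 1119 scaled CPM, against 19.5 to 154 in the other 7. They had the lowest C1qb (1449 and 1087, the others 1681 to 4452) and C3ar1 (97.2 and 139, the others 150 to 781). Cluster 3 had the highest Cfp, 244, on 84 transcripts. C5ar1 was highest in cluster 9, at 391. With clusters 1 and 3 left out, C1qc (-0.72, edgeR adjusted p = 0.102) and Cfp (2.19, 0.274) no longer passed in ciliary body macrophages against microglia, while C3ar1 (1.65, 0.00156) and C5ar1 (1.5, 0.031) did. In cornea macrophages the same 5 members passed as with all clusters. Between cornea and ciliary body the difference of C5ar1 went from 0.86 to 0.15 without these clusters. Those of C1qb (from 0.19 to -0.35), C1qc (from 0.43 to -0.18) and C3ar1 (from 0.25 to -0.50) changed sign, and no member passed. Dendritic cell markers summed to 856 and 718 in the ciliary body and 304 and 195 in the cornea macrophage sums.

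**Figure D5:**
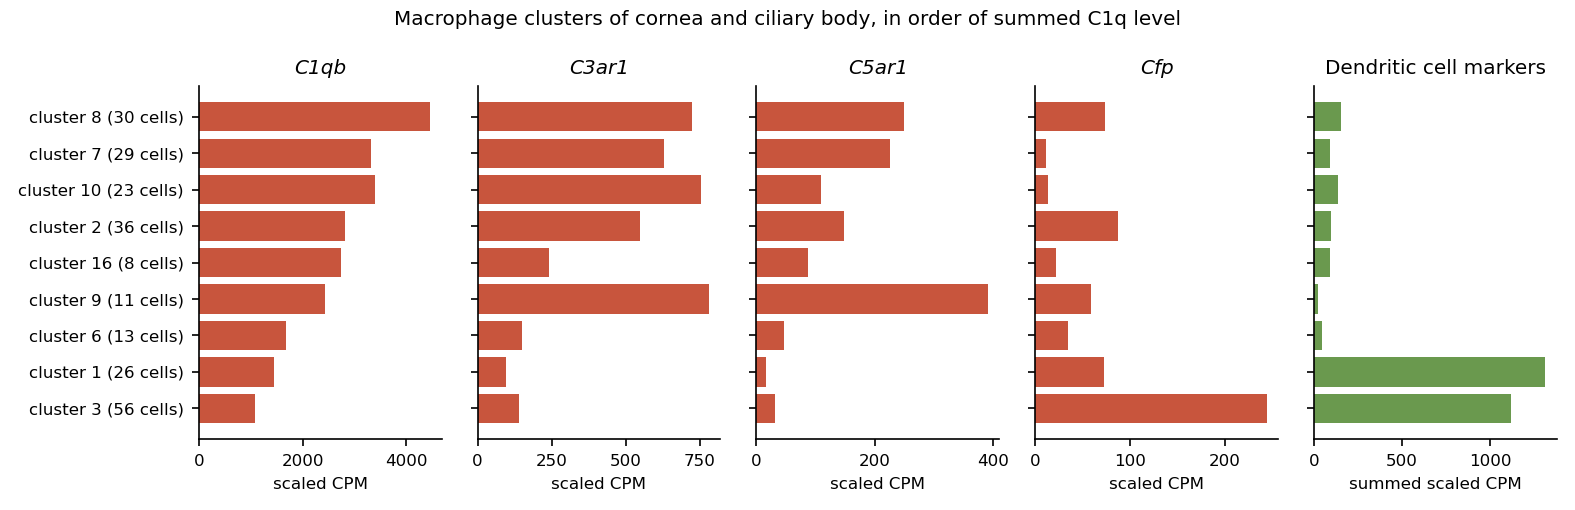
Levels of C1qb, C3ar1, C5ar1 and Cfp and the summed dendritic cell markers in the 9 macrophage clusters of the eye table, in scaled CPM; each bar or point is the sum over the cells of 1 cluster, with no replicate. Clusters 1 and 3 have the highest dendritic cell markers (1316 and 1119) and the lowest C1qb (1449 and 1087).

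The microglial clusters of the retina table differed less. Cluster 11, with 21 of its 26 cells from day 7, had 5775 C1qb and 446 C3ar1, the highest of the 6. Cluster 6, with 39 of 47 cells from day 3, had the highest C5ar1, 117, against 40.2 to 80.2 in the others. Cluster 14, with 15 of 18 cells from day 7, held 5 C3 transcripts in 4 cells. Clusters were drawn from the same cells and genes, and these values were not tested.

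Of 55 genes on a list of the complement pathway, 44 had a row, and 9 beyond the members could be tested in each retinal comparison and 10 in each eye comparison. In microglia 2 of the 9, both receptors, were higher at day 3, a share close to the 22.3% of all genes that passed, and 1 of the 9 at day 7, where 0.999% of all genes passed. Itgax, a subunit of complement receptor 4 that binds fragments of C3, measured 9.47 and 0 in the control sums, 53.5 and 52.4 in those of day 3 and 112 and 81.0 in those of day 7. It rose by 4.06 ± 0.97 at day 3 (edgeR adjusted p = 0.00641; 26 transcripts against 1, ratio 17.5, counting interval 2.87 to 717) and by 4.97 ± 0.87 at day 7 (0.0157; 40 against 1, ratio 32.8, 5.56 to 1327). Lrp1, an endocytic receptor that also binds C1q, rose by 0.80 ± 0.26 at day 3 (edgeR adjusted p = 0.0318), from 208 and 257 to 481 and 382. Without control P2, Itgax no longer passed at day 3 (2.36, edgeR adjusted p = 0.194) or day 7 (3.28, 0.085). Lrp1 lost its call with DESeq2 (adjusted p = 0.175) and without either sum of control or day 3 (edgeR adjusted p from 0.061 to 0.179). None of the 9 passed between day 7 and day 3. The median difference of the 9 was 0.09 at day 3 and 0.16 at day 7. In dendritic cells none of the 9 passed, and in the mixed class Itgam, the alpha chain of complement receptor 3, fell by 1.92 ± 0.43 (edgeR adjusted p = 0.0174), from 187 and 267 to 53.2 and 70.4. That call was lost with DESeq2 (adjusted p = 0.0639) and without day 3 P2, day 7 P1 or day 7 P2 (edgeR adjusted p from 0.0572 to 0.188), beside the change of makeup given above.

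Macrophages of the unlesioned eye were compared with control microglia over the same list. In both tissues, where 34.7% and 29.7% of all genes passed, 2 of the genes tested were higher, and Itgam, Lrp1 and Vtn were lower. Itgax rose by 5.56 ± 0.83 in cornea and 5.51 ± 0.82 in ciliary body, on 79 transcripts in cornea against 1 (ratio 46.0 in ciliary body, counting interval 8.10 to 1833), and Cd93, once described as a C1q receptor, by 2.98 ± 0.81 and 3.64 ± 0.73, on 26 and 66 against 2. Itgam fell by 1.04 ± 0.30 in cornea and fell by 1.60 ± 0.31 in ciliary body. Lrp1 fell by 1.59 ± 0.36 and fell by 1.42 ± 0.34 in the same order. Vtn, the gene of vitronectin, an inhibitor of the terminal complex, fell by 4.14 ± 1.04 and fell by 3.80 ± 0.90, from 19 transcripts in microglia to 2 and 4. The highest edgeR adjusted p of these differences was 0.0171. Itgax kept its call in both tissues under every alternative that gave a value, while Cd93 in cornea, Itgam in cornea, Lrp1 in ciliary body and Vtn in both lost theirs under some, among them the fits without 1 control sum. Between cornea and ciliary body none of the 10 passed, and none had an unadjusted p under 0.05.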

How the data were processed

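BWA 0.6.2-r126 is named in the submitters' processing notes, while the genome build, the annotation used and any rule of counting remain not given in the sources used here. The authors deposited estimated counts (transcripts per gene in each well) and other tables with a class and cluster for each annotated well. The deposited unnormalized tables carry no gene names. Their wells were matched to the library tables by prefix, tissue, library and well number: all 511 retina and 429 eye wells had totals over the shared genes that differed by at most 0.999 and 0.00582 transcripts, and all 8 measured members had a row in both tables that was equal to 5 decimals.

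Counts of annotated cells were summed per class and prefix (at least 5 cells), rounded, and tested with edgeR 4.0.16 (filterByExpr, TMM, robust quasi-likelihood fit; R 4.3.3). DESeq2 1.42.0 was an alternative. Adjusted p-values cover all genes tested (Benjamini-Hochberg). Each SE was taken as the size of the unshrunk log2 value over the root of its F statistic. The fits were tested on simulated data. Intervals cover counting error only. Wells were thinned over the 25112 genes kept in both deposited unnormalized tables. Every member is named whatever its result, and other pathway genes where they passed, except 1 that is not reported here. The members and lists were chosen with earlier results of these data known. No doublet caller was run on these plate-sorted wells.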

Additional observations from a re-analysis of the deposited data

Results flagged for a closer look

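C1qc in cornea macrophages had 1 library far from the other 3: the first P2 library, with 6 cells, measured 1251 scaled CPM and the others 1800 to 1887. It was the only such case among 32 groups of 4 libraries tested, of which chance flags about 1 in 20. C1qb was also found in passing wells that carry no annotation and are rich in neither photoreceptor nor corneal epithelial transcripts, which no comparison above uses. It was found in 82.8% of 58 such wells in control retina, 69.0% of 100 at day 3, 85.6% of 118 at day 7, 77.4% of 133 in cornea and 84.0% of 75 in ciliary body. Thinning to 1000 transcripts of kept genes left out 39, 53, 59, 31 and 29 of these wells as too shallow, and in the rest the shares were 73.7%, 51.1%, 67.8%, 54.9% and 67.4%.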

How the results depend on the processing

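No called difference of a named gene changed sign, and counts of members passing that are not given here stayed within 1.5 times the value reported. With plain totals, 4 members passed in microglia at day 3 and 1 at day 7. In dendritic cells 0 passed with DESeq2 and 0 in wells with under 1% photoreceptor and corneal transcripts, and 0 to 4 when 1 sum was left out. In the mixed class 0 passed with DESeq2, 2 without the filter on low counts and 0 to 1 with 1 sum left out. Between cornea and ciliary body macrophages 0 to 1 passed with 1 sum left out, and for cornea macrophages against microglia 1 to 4. For ciliary body macrophages against microglia 4 passed with single libraries, 4 in wells past the filter, 4 in wells with under 1% photoreceptor and corneal transcripts and 4 with the genes the authors kept. Wells past the filter had at least 1000 transcripts and at most 25% mitochondrial ones. The fits with plain totals, with the genes the authors kept and without macrophage clusters 1 and 3 were chosen after seeing the data.

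Counts over all genes moved more. With 825, 37 and 336 genes called in the 3 microglia comparisons, DESeq2 called 323, 19 and 90. Plain totals changed the split of higher and lower calls from 394 and 431 to 1018 and 189 at day 3, from 24 of 37 higher to all but 10 of 136 at day 7, and from 175 and 161 to 91 and 447 between them. They changed it from 827 and 733 to 1292 and 490 for cornea macrophages against microglia, and from 767 and 569 to 1009 and 364 for ciliary body. Over all alternatives but single sums left out, 2 to 18 genes were called in dendritic cells, 31 to 110 in the mixed class, 23 to 356 between the macrophages, 1043 to 1819 for cornea and 658 to 1474 for ciliary body macrophages against microglia.

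The retina groups share the prefixes P1 and P2. Deviations of same-numbered microglia sums correlated by 0.016, 0.19 and -0.074 over 3704 genes, so the prefixes were not taken to pair the sums. With the prefix as a replicate block the members passing were 0, 0 and 0 in microglia, 1 in dendritic cells and 1 in the mixed class, and 905, 43, 463, 8 and 81 of all genes. No paired analysis was possible for the eye comparisons because they share fewer than 2 prefixes: cornea and control retina share P2 alone, and ciliary body shares none with either. In dendritic cells the fit on signature-named cells had no P2 sum at day 7. With 2 sums per group and counts as low as those of C3 and Cfb, small differences were not detectable.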

Other observations

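C4a, a near-identical copy of C4b, had 48 transcripts in the annotated wells, 22 of them in microglia of day 7. Their P1 sum held 18 transcripts in 12 of 63 cells (77.7 scaled CPM) and their P2 sum 4 transcripts in 3 of 50 cells (23.1). Control microglia measured 28.4 and 8.85 on 3 and 2 transcripts, and day 3 microglia 5.94 and 9.24 on 1 and 3. The sums of day 7 and control overlap, and the gene had too few transcripts for the test. In ciliary body macrophages 9 transcripts lay in 3 cells of the P3 sum, and the P4 sum held 0.

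The genes whose levels followed each member most closely were sought among 2694 genes with a mean of at least 50 scaled CPM, over 21 sums. For C1qa the closest was Cx3cr1, the fractalkine receptor of microglia (Pearson r = 0.96), and for C1qb and C1qc, after the other chains, Csf1r, a receptor of colony-stimulating factor (0.95 for both). C3ar1 was followed by Ctsc (0.90), Adgre1, which codes for F4/80 (0.90), and C5ar1 (0.89), and C5ar1 by Ccl2 (0.90). Cfp was followed by Ifitm1 (0.90), Crlf2 (0.89) and Gsn (0.89). The sums share libraries, and these values are descriptions with no test.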
